A study of Mus musculus with 6 samples.

Results

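The 48 genes described here encode the machinery that licenses and copies DNA, the enzymes that supply its nucleotides, and E2f factors that regulate such genes. They were listed by name, and all 48 were found, each with 1 row per condition, among the 21966 genes of the expression table. Of these genes, 21959 had a usable value in both conditions and served as the comparison. Before S phase, the origin recognition complex, Cdc6 and Cdt1 load the Mcm helicase onto origins, where it is later activated by Cdc45 and the GINS complex so that the polymerases can start. E2f factors, held in check by Rb family proteins until the end of G1, are known to drive the transcription of most of these genes, and in the intestine such genes mark the dividing cells of the crypt and of adenomas.

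The study used RNA-seq to ask how inhibition of Group I Paks, kinases that act downstream of Cdc42 and Rac, affects transcription in Apc-mutant colon tumor cells. PID- cells came from mice with CDX2P-NLS-Cre and APCΔ/+, and PID+ cells from littermates with the same alleles and ROSA26-PID, which after Cre recombination expresses the Pak inhibitory domain, a peptide that blocks the kinase activity of Group I Paks. With Cre under the Cdx2 promoter, recombination is mostly confined to epithelial cells of the colon and lower small intestine. The samples were primary lines grown from adenomas, 3 for each genotype, which the sample names number 1, 2 and 3 for PID- and 4, 7 and 26 for PID+. The study gives its PID- lines other numbers, so which of them were sequenced is not known. In the labels, PID- samples are called normal and untreated and the PID+ samples treated, so the rows of the table named treated were taken as PID+. The reads of the 3 samples were merged before quantification, leaving 1 FPKM (fragments per kilobase of transcript, scaled to the fragments sequenced) per gene and condition, with the bounds of a confidence interval. No difference given here therefore has a replicate check, no p-value can be given, and the intervals stand in for the error. Changes are log2 ratios of FPKM + 1 in PID+ over PID- cells, so small values move less than their plain ratio.

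The epithelial origin of the cells was visible in both conditions. Krt19 had 2073 FPKM in PID- against 2469 in PID+ cells, and Epcam had 124 and 401. Of 11 intestinal epithelial markers, 6 were at least 1.5-fold higher and 2 lower by as much, and their summed FPKM was 4968 in PID- against 9085 in PID+ cells. Krt20, a keratin of the gut epithelium, had 73.5 in PID- against 158 in PID+ cells, while some other intestinal markers were far lower or absent. Cdx2, which specifies intestinal identity, had 8.04 in PID- against 0.542 in PID+ cells, Vil1 was below 1 in both, and Cdx1 was listed at 0. Fibroblast markers were more abundant in PID- cells, with a summed FPKM of 34.1 against 3.005 over 8 genes. Col1a1 was the most abundant of them on average, at 11.9 and 2.32, Lum was listed at 0 in both conditions and Dcn and Thy1 in PID+ cells. The 8 leukocyte markers summed to 0.351 in PID- against 0.296 in PID+ cells. Smooth muscle markers summed to 12.8 and 5.58, led by Acta2, endothelial markers to 1.12 and 3.66, led by Kdr, and platelet and mast cell markers to 2.88 and 2.74, led by Itga2b. The part of these differences in the results below was not tested. In such bulk RNA, a different share of cycling cells and a different amount of RNA per cycling cell cannot be told apart.

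Most of the replication genes had a higher FPKM in PID+ cells. In all, 46 of the 48 lay above 0 on the log2 scale, beside 41.0% of all genes and 49.9% of those averaging 5 FPKM or more, and 29 were higher in PID+ cells by at least 1.5-fold, where 8.18% of all genes were. Rrm2 alone was at least 1.5-fold lower, against 8.84% of all genes. The 48 log2 changes had a median of 0.66, beside 0 for all genes and -0.0012 for the 9341 genes averaging 5 FPKM or more, of which 13.0% were at least 1.5-fold higher and 13.4% at least 1.5-fold lower. At 2-fold, 12 of the 48 were higher and none lower, beside 3.31% and 3.77% of all genes, and at 3-fold on the FPKM + 1 scale only Rrm1 was higher and none lower, beside 1.04% and 1.72%. The summed FPKM of the 48 genes was 1343 in PID- against 1998 in PID+ cells, a ratio of 1.49, and without Rrm2 it was 1112 and 1849, a ratio of 1.66.

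These differences were modest beside the deposited intervals, and of the scalings tried, equal Gapdh alone took the median near 0. The upper bound lay a median of 83.1% above the FPKM in PID- and 72.5% above it in PID+ cells, and the intervals of the 2 conditions overlapped for all 48 genes, while 0.729% of all genes had intervals apart. For Mcm2, Mcm3, Mcm5, Cdc6 and Rrm1, the FPKM of each condition lay outside the interval of the other, which was so for 0.706% of all genes in the direction of PID+. With equal total FPKM, equal upper quartiles, an equal median of the genes averaging 5 FPKM or more, or an equal median of 15 housekeeping genes, the median of the 48 lay between 0.56 and 0.70 and 23 to 30 of them were at least 1.5-fold higher. Gapdh, a glycolytic enzyme often used as a reference, had 1666 FPKM in PID- against 2570.3 in PID+ cells. When its FPKM was set equal, the median of the 48 genes became 0.074, with 29 of them above 0, 10 at least 1.5-fold higher and 2 lower, while the median of the genes averaging 5 FPKM or more moved to -0.58. All genes at least 1.5-fold apart were then split into 600 higher and 5813 lower, in place of 1797 and 1942. The 10 genes were Cdc6, Orc1, Mcm2, Mcm3, Mcm5, Mcm10, Fen1, Lig1, Rrm1 and Uhrf1, and the 2 were Rrm2 and Cdc45. The -0.58 of the genes averaging 5 FPKM or more is the baseline for values given below with Gapdh set equal.

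**Figure D1:**
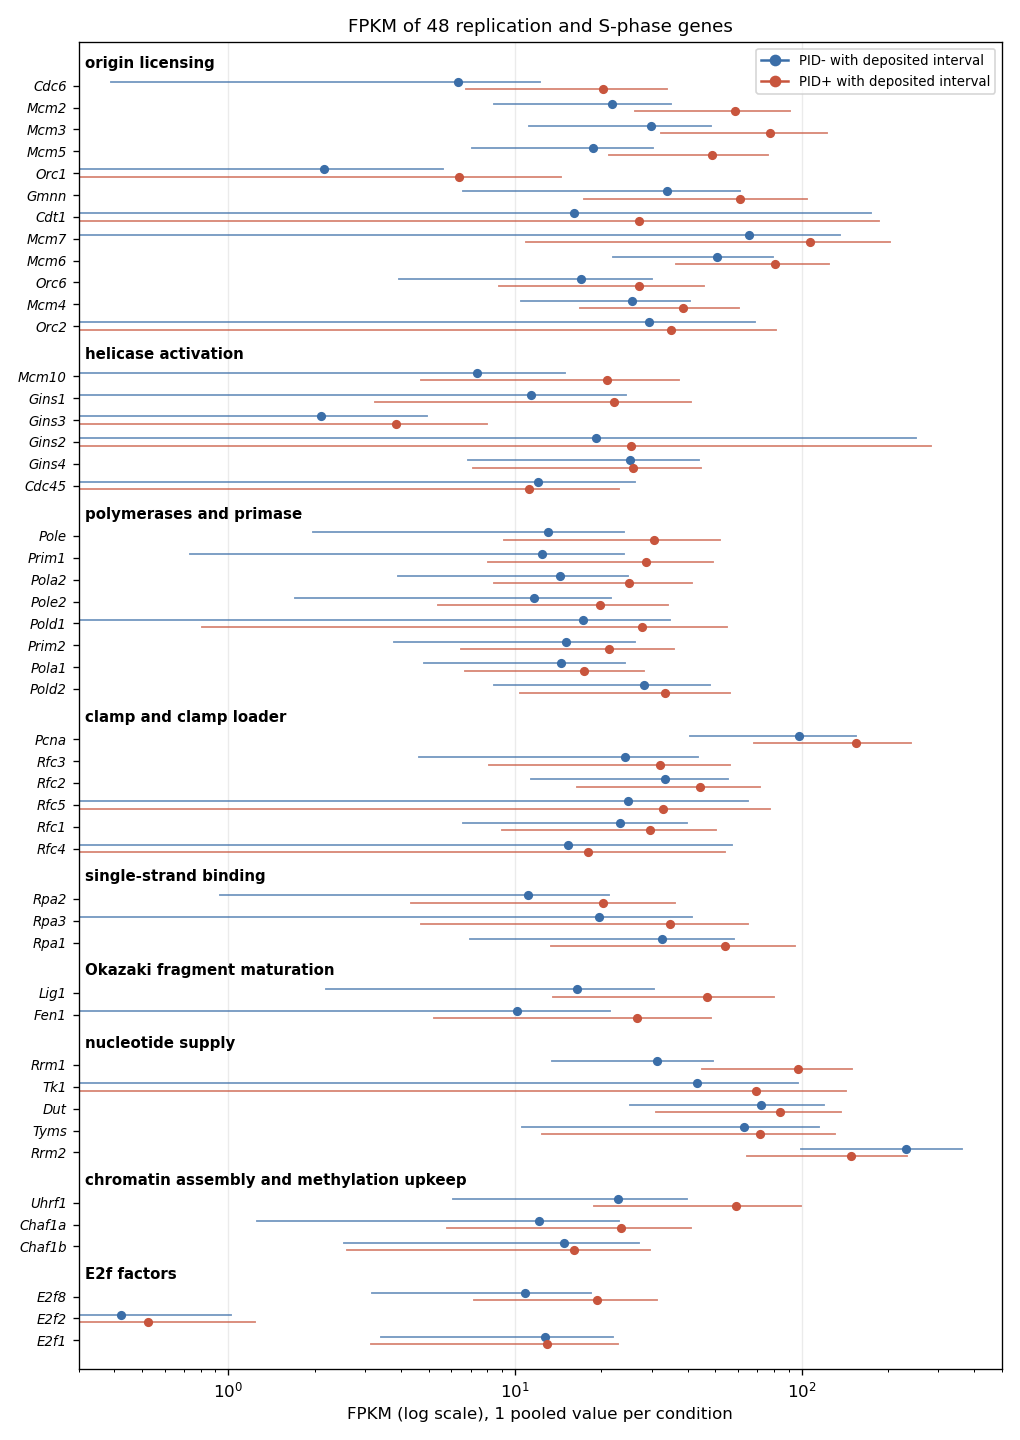
FPKM of the 48 genes on a log axis, grouped by role and ordered by log2 change within each role, for PID- (blue) and PID+ cells (red). Points are the 1 pooled value per condition and lines the deposited intervals, cut off at the left edge where the lower bound is at or near 0; the intervals of the conditions overlap for every gene, and the red point lies to the left of the blue one for Rrm2 and Cdc45.

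Origin licensing held the most genes at least 1.5-fold higher, 10 of 12, all 12 lay above 0, and its median log2 change was 0.78. Cdc6, the ATPase that recruits the helicase to origins, was among the members furthest apart. Its gene (ENSMUSG00000017499.12) lies on chromosome 11 from 98907801 to 98923940 of GRCm38. Cdc6 had 6.31 FPKM (interval 0.389 to 12.2) in PID- against 20.3 (6.76 to 33.9) in PID+ cells, and its log2 change was 1.55. Cdt1, its partner in loading, and Gmnn, which binds Cdt1 and keeps origins from being licensed again, were higher by factors close to each other. For Cdt1, the FPKM was 16.01 (0 to 174) in PID- against 27.03 (0 to 186) in PID+ cells, with a log2 change of 0.72. Gmnn stood at 33.8 FPKM (6.58 to 61.1) in PID- against 60.97 (17.5 to 104) in PID+ cells, a difference of 0.83 on the log2 scale. The ratio of Cdt1 to Gmnn was 0.473 in PID- against 0.443 in PID+ cells, a proportion that the interval of Cdt1 leaves unresolved. The interval of Cdt1 was wide, since its upper bound lay far above its FPKM. Of the origin recognition complex, which marks origins, 3 subunits were listed. Orc1 had 2.15 FPKM (interval 0 to 5.61) in PID- against 6.39 (0 to 14.5) in PID+ cells, and its log2 change was 1.23. For Orc6, the FPKM was 17.02 (3.94 to 30.1) in PID- against 27.1 (8.76 to 45.5) in PID+ cells, with a log2 change of 0.64. Orc2 was within 1.5-fold, with 29.4 FPKM in PID- against 34.9 in PID+ cells. Orc2 was at -0.36 when Gapdh was set equal, and the 12 licensing genes then had a median of 0.17. The genes averaging 5 FPKM or more then had a median of -0.58. Orc1 had the lowest level of the 3 subunits and the greatest change, and both its lower bounds were at 0.

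The 6 subunits of the Mcm2-7 helicase, the ring that unwinds DNA at the fork, all had higher FPKM in PID+ cells, but by unequal amounts. Mcm2 stood at 21.7 FPKM (8.45 to 34.99) in PID- against 58.7 (26.3 to 91.2) in PID+ cells, a difference of 1.39 on the log2 scale. Mcm3 had 29.7 FPKM (interval 11.2 to 48.2) in PID- against 77.3 (32.4 to 122) in PID+ cells, and its log2 change was 1.35. For Mcm5, the FPKM was 18.7 (7.09 to 30.4) in PID- against 48.7 (21.4 to 76.1) in PID+ cells, with a log2 change of 1.33. These 3 subunits were at least 2-fold higher on the FPKM + 1 scale. Mcm6 stood at 50.7 FPKM (22.00 to 79.5) in PID- against 80.7 (36.5 to 125) in PID+ cells, a difference of 0.66 on the log2 scale. Mcm7 had 65.4 FPKM (interval 0 to 136) in PID- against 107 (10.96 to 204) in PID+ cells, and its log2 change was 0.71. For Mcm4, the FPKM was 25.6 (10.5 to 40.7) in PID- against 38.5 (16.8 to 60.2) in PID+ cells, with a log2 change of 0.57. On the FPKM + 1 scale, Mcm4 was just short of 1.5-fold, and Mcm6 and Mcm7 were past it. Mcm7 was the most abundant subunit in both conditions, and Mcm5 was the least abundant in PID- cells and Mcm4 in PID+ cells. By FPKM, the levels of the 6 were closer to each other in PID+ cells, where the highest was 2.78 times the lowest, against 3.49 times in PID- cells. The wide intervals of Mcm7 leave this difference unresolved. With Gapdh set equal, Mcm4 had a log2 change of -0.035, Mcm6 of 0.044 and Mcm7 of 0.088, while Mcm2, Mcm3 and Mcm5 were at 0.78, 0.74 and 0.72. The order also depended on the chromosomes, since Mcm4 lies on chromosome 16, where the genes averaging 5 FPKM or more had a median of -0.50. After subtraction of each chromosome's median, all 6 subunits were at least 1.5-fold higher. Mcm4 was then at 1.08, above Mcm2 and below Mcm3 at 1.36 and Mcm5 at 1.46. Mcm6 and Mcm7 were lowest, at 0.67 and 0.70. Exons of Mcm7 overlap Ap4m1 and Cops6 in the annotation. Because the library kit does not mark strand, reads of such antisense neighbors cannot be told apart, and this holds for each antisense overlap named below.

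The factors that turn the loaded ring into an active helicase were split, with 3 of 6 at least 1.5-fold higher and a median log2 change of 0.52. Mcm10 stood at 7.38 FPKM (0 to 14.98) in PID- against 21.00 (4.696 to 37.3) in PID+ cells, a difference of 1.39 on the log2 scale. Mcm10, which is needed for origin firing, was the only one of the 6 past 2-fold. The GINS subunits, which join Mcm2-7 and Cdc45 at the fork, differed in both level and change. Gins1 had 11.3 FPKM (interval 0 to 24.3) in PID- against 22.1 (3.24 to 41.03) in PID+ cells, and its log2 change was 0.91. For Gins3, the FPKM was 2.11 (0 to 4.91) in PID- against 3.85 (0 to 8.01) in PID+ cells, with a log2 change of 0.64. Gins2 and Gins4 were within 1.5-fold, Gins2 with 19.2 in PID- against 25.4 in PID+ cells and Gins4 with 25.3 and 25.9. Gins3 was by far the lowest of the 4, which form the complex in equal numbers, and the interval of Gins2, which overlaps Gse1, reached up to 252 in PID- against 282 in PID+ cells. Cdc45, the third component of the active helicase, had 12.03 in PID- against 11.2 in PID+ cells, with -0.093 as its log2 change, and overlaps Ufd1. With Gapdh set equal, the median of the 6 genes was -0.018, beside -0.58 for the genes averaging 5 FPKM or more.

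Among the polymerases and primase, 5 of 8 subunits were higher in PID+ cells by at least 1.5-fold and the median log2 change was 0.69. The primase subunits, which lay down RNA primers, and the alpha polymerase subunits, which extend them, each held a subunit past 1.5-fold and another short of it. Prim1 stood at 12.4 FPKM (0.734 to 24.01) in PID- against 28.6 (8.03 to 49.2) in PID+ cells, a difference of 1.15 on the log2 scale. Prim2 had 15.03 FPKM (interval 3.77 to 26.3) in PID- against 21.2 (6.46 to 35.96) in PID+ cells, and its log2 change was 0.47. For Pola2, the FPKM was 14.3 (3.91 to 24.7) in PID- against 24.9 (8.47 to 41.4) in PID+ cells, with a log2 change of 0.76. Pola1, the catalytic subunit, had 14.5 in PID- against 17.4 in PID+ cells. These 4 proteins form a single complex, and their FPKM lay within 1.21 times of each other in PID- and within 1.64 times in PID+ cells. Polymerase epsilon, the leading strand enzyme, was higher in both listed subunits. Pole stood at 13.02 FPKM (1.98 to 24.1) in PID- against 30.6 (9.18 to 51.99) in PID+ cells, a difference of 1.17 on the log2 scale. Pole2 had 11.7 FPKM (interval 1.71 to 21.6) in PID- against 19.8 (5.41 to 34.2) in PID+ cells, and its log2 change was 0.72. Pole2 overlaps the predicted gene Gm49384 on the same strand. Of polymerase delta, the lagging strand enzyme, the catalytic subunit was past 1.5-fold. For Pold1, the FPKM was 17.3 (0 to 34.7) in PID- against 27.8 (0.808 to 54.9) in PID+ cells, with a log2 change of 0.66. Its accessory subunit Pold2 had 28.3 in PID- against 33.3 in PID+ cells. With Gapdh set equal, none of the 8 was 1.5-fold apart, the median was 0.095, and Pola1, Pold2 and Prim2 lay below 0. The genes averaging 5 FPKM or more then had a median of -0.58.

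As deposited, the sliding clamp differed more than its loader. Pcna stood at 98.02 FPKM (40.8 to 155) in PID- against 154 (68.2 to 241) in PID+ cells, a difference of 0.65 on the log2 scale. Pcna, the ring that tethers polymerases to DNA, was among the 5 most abundant of the 48 genes, and the annotation holds 2 pseudogenes of it, Pcna-ps1 and Pcna-ps2, that could share reads. The loader, replication factor C, has 5 subunits, and each was higher in PID+ cells by less than 1.5-fold. Rfc3 had 24.1 FPKM (interval 4.61 to 43.6) in PID- against 32.1 (8.13 to 56.1) in PID+ cells, and its log2 change was 0.40. Rfc1, the large subunit, had 23.2 and 29.5, Rfc2 33.3 and 44.01, Rfc4 15.3 and 18.03, and Rfc5 24.8 and 32.7 in PID- and PID+ cells. Their log2 changes as deposited spanned 0.23 to 0.40. With Gapdh set equal, all 5 lay below 0, at a median of -0.22, beside -0.58 for the genes averaging 5 FPKM or more. After subtraction of each chromosome's median, Pcna was at 0.57 and within 1.5-fold. Rfc4 was then above it, at 0.73, and the other loader subunits were below it, between 0.33 and 0.39. Rfc2, Rfc4 and Rfc5 overlap Lat2, Eif4a2 and Wsb2.

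Replication protein A coats the exposed single strands, and its 3 subunits were all past 1.5-fold. For Rpa1, the FPKM was 32.5 (6.95 to 58.05) in PID- against 54.1 (13.3 to 94.8) in PID+ cells, with a log2 change of 0.72. Rpa2 stood at 11.1 FPKM (0.938 to 21.2) in PID- against 20.2 (4.34 to 36.1) in PID+ cells, a difference of 0.81 on the log2 scale. Rpa3 had 19.6 FPKM (interval 0 to 41.6) in PID- against 34.8 (4.698 to 64.8) in PID+ cells, and its log2 change was 0.80. Their log2 changes were within 0.1 of each other as deposited but not after subtraction of each chromosome's median, at 0.68, 1.13 and 0.45 for Rpa1, Rpa2 and Rpa3. With Gapdh set equal none was 1.5-fold apart, at a median of 0.19. The enzymes that join Okazaki fragments showed larger differences. Fen1 removes the displaced flap and Lig1 seals the nick. For Fen1, the FPKM was 10.1 (0 to 21.5) in PID- against 26.7 (5.23 to 48.2) in PID+ cells, with a log2 change of 1.32. Lig1 stood at 16.4 FPKM (2.19 to 30.6) in PID- against 46.9 (13.6 to 80.2) in PID+ cells, a difference of 1.46 on the log2 scale. Both stayed at least 1.5-fold higher with Gapdh set equal, at 0.72 and 0.85. Fen1 overlaps Tmem258 and Lig1 overlaps Zswim9 in the annotation.

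On the FPKM + 1 scale as deposited, the nucleotide supply held both extremes among the 48 genes, though Cdc6 was above Rrm1 by its plain ratio. After subtraction of each chromosome's median, Orc1 was highest at 1.54, and Cdc6, Mcm5 and Uhrf1 were also above Rrm1, which was at 1.36. Rrm1 and Rrm2 encode the large and small subunits of ribonucleotide reductase, which makes deoxyribonucleotides. The gene Rrm1 (ENSMUSG00000030978.9) lies on chromosome 7 from 102441695 to 102469771. Rrm1 had 31.2 FPKM (interval 13.5 to 49.01) in PID- against 97.4 (44.8 to 150.1) in PID+ cells, and its log2 change was 1.61. Rrm2 (ENSMUSG00000020649.8) lies on chromosome 12 from 24708241 to 24714146 and was the most abundant member in PID- cells. For Rrm2, the FPKM was 231 (99.2 to 362) in PID- against 149 (64.6 to 233) in PID+ cells, with a log2 change of -0.63. In PID- cells, Rrm2 had 7.38 times the FPKM of Rrm1, and in PID+ cells 1.53 times. Rrm2 made up 17.2% of the summed FPKM of the 48 genes in PID- and 7.44% in PID+ cells. Rrm2b, the alternative small subunit used outside S phase, had 11.5 and 12.9. After subtraction of each chromosome's median, Rrm2 was at -0.52 and no longer 1.5-fold apart, and with Gapdh set equal it was at -1.25. Among the enzymes of thymidine nucleotides, Tk1, the salvage kinase, was past 1.5-fold. Tk1 stood at 43.2 FPKM (0 to 96.97) in PID- against 69.2 (0 to 143) in PID+ cells, a difference of 0.67 on the log2 scale. Tyms, which makes thymidylate, and Dut, which removes dUTP, were close between the conditions although both were abundant. Tyms had 62.99 FPKM (interval 10.6 to 115) in PID- against 71.8 (12.4 to 131) in PID+ cells, and its log2 change was 0.19. For Dut, the FPKM was 72.2 (25.2 to 119) in PID- against 84.3 (30.97 to 138) in PID+ cells, with a log2 change of 0.22. Both lay below 0, at -0.43 and -0.40, when Gapdh was set equal, beside -0.58 for the genes averaging 5 FPKM or more. Tk1 overlaps Afmid, and Tyms has an annotated pseudogene.

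Chromatin assembly factor 1 places histones behind the fork, and Uhrf1 brings the maintenance methyltransferase to newly copied DNA. Uhrf1 stood at 22.9 FPKM (6.08 to 39.8) in PID- against 59.2 (18.8 to 99.5) in PID+ cells, a difference of 1.33 on the log2 scale. Chaf1a had 12.1 FPKM (interval 1.26 to 22.99) in PID- against 23.5 (5.801 to 41.2) in PID+ cells, and its log2 change was 0.90. Chaf1b, the partner of Chaf1a, had 14.8 in PID- against 16.1 in PID+ cells, a log2 change of 0.11 that became -0.47 with Gapdh set equal. Dnmt1, the methyltransferase that Uhrf1 recruits, had 32.8 and 47.6, a log2 change of 0.52. Chaf1a overlaps Ubxn6. Of the 3 E2f factors, 1 was past 1.5-fold. E2f1, an activator, had 12.7 in PID- against 12.96 in PID+ cells, and E2f2, another activator, was barely expressed at 0.422 and 0.523. E2f8, a repressor that is itself an E2f target, was the one past 1.5-fold. For E2f8, the FPKM was 10.8 (3.18 to 18.5) in PID- against 19.2 (7.21 to 31.3) in PID+ cells, with a log2 change of 0.78. With Gapdh set equal, E2f1 was at -0.54 and E2f8 at 0.19, and the genes averaging 5 FPKM or more had a median of -0.58.

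The chromosomes that carry these genes had different medians. The 48 genes are spread over 15 chromosomes, and 5 lie on the chromosomes with the lowest medians, 16 and X. The genes averaging 5 FPKM or more had a median log2 change of -0.50 on chromosome 16 and -0.45 on chromosome X. None of Mcm4, Cdc45, Rfc4 and Chaf1b on chromosome 16 or Pola1 on X was 1.5-fold higher, against 29 of 43 elsewhere. After subtraction of each chromosome's median, 4 of the 5 were, Mcm4 at 1.08, Rfc4 at 0.73, Pola1 at 0.70 and Chaf1b at 0.61, and Cdc45 was at 0.41. Conversely, Rpa3 on chromosome 6, whose median was 0.34, Pold1 and E2f8 on chromosome 7, at 0.25, and Pcna on chromosome 2, at 0.083, were then within 1.5-fold, so that 25 of the 29 genes stayed past it and the count again came to 29. The part of the chromosomes in each gene's difference was not tested. The 13 genes that overlap another protein coding gene, among them Orc2 with Nif3l1 and Orc6 with Vps35, had a median log2 change of 0.64, and the other 35 of 0.72.

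The other genes of the pathway and of the cell cycle were described by lists. Of 38 further replication genes, 16 were higher in PID+ cells by at least 1.5-fold, beside 8.18% of all genes, and 2 lower. Their median log2 change was 0.55. Pold3, an accessory subunit of polymerase delta, had the largest log2 change as deposited, with 12.5 FPKM in PID- against 31.5 in PID+ cells. Timeless, of the fork protection complex, had 5.89 and 15.3. Wdhd1, which links polymerase alpha to the helicase, had 5.69 and 14.5, and Ung, which removes uracil from DNA, had 3.97 and 9.86. The origin firing factors Ticrr and Topbp1 were also more than 2-fold apart. Ticrr had 2.43 in PID- against 6.38 in PID+ cells, and Topbp1 38.2 and 82.2. The 2 genes lower by at least 1.5-fold, a smaller share than the 8.84% of all genes and named after their values were seen, were Orc3, with 27.05 and 13.2, and Pold4, with 43.6 and 23.2.

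Of 17 regulators of the G1/S transition, 6 were higher in PID+ cells by at least 1.5-fold and 1, E2f3, lower. Of all genes, 8.18% were higher and 8.84% lower by that fold. The median log2 change of the 17 was 0.46. Ccne1, the cyclin E that activates Cdk2 at S phase entry, had 4.72 in PID- against 15.2 in PID+ cells. The repressor E2f7 had 5.33 and 14.4, and Ccna2, cyclin A, had 39.4 and 92.6. E2f3, an activator named after its values were seen, had 22.6 (interval 0 to 99.2) and 14.04 (0 to 60.6), and after subtraction of each chromosome's median it was at -0.46 and within 1.5-fold.

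The median of the mitosis list was above that of the replication genes. Of 30 genes, 26 were higher in PID+ cells by at least 1.5-fold and none lower, beside 8.18% and 8.84% of all genes. The median log2 change of the 30 was 0.97. Cenpe, a kinetochore motor, had 11.6 in PID- against 31.7 in PID+ cells, and Cenpf, another kinetochore protein, had 10.6 and 26.1. Foxm1, the transcription factor of the G2 and M genes, had 26.96 and 69.5, and Mki67, the proliferation marker, had 29.4 and 68.9. For cytokinesis, Ect2 had 33.00 and 83.03 and Kif20a 18.8 and 43.5. By MTT assay, the study found proliferation suppressed in its PID+ lines, and it saw less phospho-histone staining in adenomas with PID. RNA levels do not measure growth, and how these values relate to those assays was not tested. None of these 3 lists had a gene with intervals apart. With Gapdh set equal, the median was 0.35 for mitosis, with 5 genes at least 1.5-fold higher and 0 lower. It was -0.057 for the further replication genes, with 3 higher and 6 lower. For the G1/S regulators it was -0.15, with 3 higher and 3 lower. Of all 21959 genes, 600 were then higher and 5813 lower, and those averaging 5 FPKM or more had a median of -0.58. Of 15 housekeeping genes as deposited, 4 were higher and 2 lower by 1.5-fold, beside the same shares of all genes, 8.18% and 8.84%. Their median log2 change was -0.041, and Tfrc, the transferrin receptor, differed most, with 20.97 and 69.8.

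**Figure D2:**
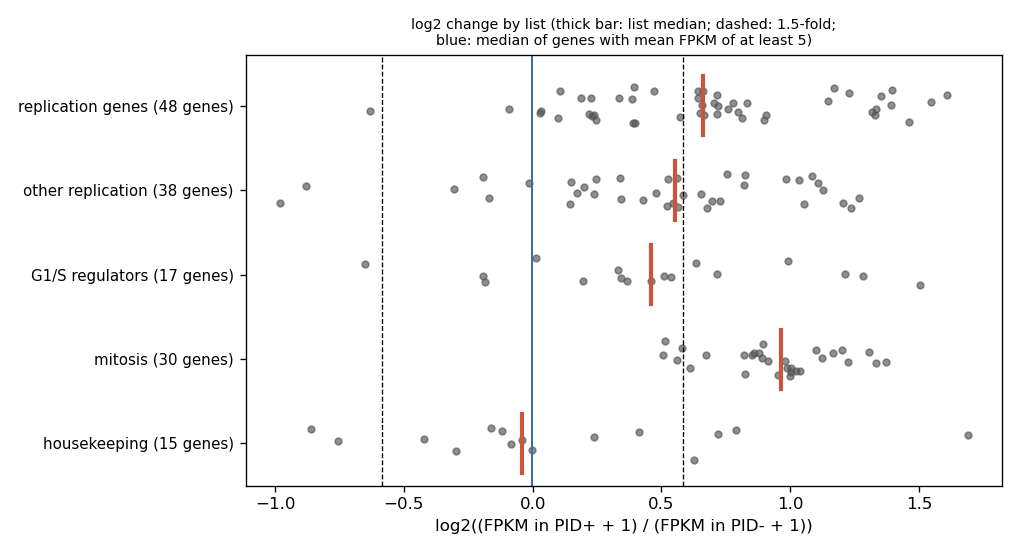
The log2 change of each gene (x axis, FPKM + 1 in PID+ over PID- cells) by list, with a thick bar at each median, dashed lines at 1.5-fold and a blue line at the median of genes averaging 5 FPKM or more. Points are spread vertically for display; the medians lie at 0.66 for the replication genes, 0.55 for further replication genes, 0.46 for G1/S regulators, 0.97 for mitosis and -0.041 for housekeeping genes.

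Since many of these genes are known E2f targets, their promoters were searched for E2F words. The windows hold 250 bases before and 50 after a gene's start in RefSeq on GRCm38.p6, and 40 of the 48 genes had at least 1. These starts can differ from the gene positions given above, which came from Gencode. The words TTTCCCGC, TTTCGCGC, TTTGCCGC and TTTGGCGC were searched on both strands, and a gene with several windows was counted if any held a word. Such a word was present for 15 of the 40 genes, or 37.5%, beside 2.61% of the 27025 genes with windows and 5.11% of the 7436 averaging 5 FPKM or more. The word CCAAT, an element of many cell cycle promoters, was present on either strand for 26 of the 40, or 65.0%, beside 41.1% of all. In 1 window of these genes an E2F word shared a base with CCAAT. Genes with an E2F word had a median log2 change of 0.72 and those without of 0.65, and a word was present for 12 of the 26 genes at least 1.5-fold higher and 3 of the 13 within 1.5-fold. In the mitosis list, 1 of 25 genes with windows held an E2F word and 20 held CCAAT.

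A few windows are printed to show how the words lie, with E2F words on either strand in capitals and bases counted from the 5′ end of the window. Mcm5 and Mcm6 each hold a pair of words that share 4 bases and point in opposite directions, at bases 98 and 102 in Mcm5 and 141 and 145 in Mcm6, which has another at 204. Cdc6 has a word at base 113, but its whole window lies downstream of the Gencode start given above, 98907801. Rrm1 and Rrm2, which differed in opposite directions, have none. The windows lie at chr8:75109259-75109558 (plus strand), chr1:128359656-128359955 (minus strand), chr11:98907901-98908200 (plus strand), chr7:102441445-102441744 (plus strand) and chr12:24708004-24708303 (plus strand).
Mcm5: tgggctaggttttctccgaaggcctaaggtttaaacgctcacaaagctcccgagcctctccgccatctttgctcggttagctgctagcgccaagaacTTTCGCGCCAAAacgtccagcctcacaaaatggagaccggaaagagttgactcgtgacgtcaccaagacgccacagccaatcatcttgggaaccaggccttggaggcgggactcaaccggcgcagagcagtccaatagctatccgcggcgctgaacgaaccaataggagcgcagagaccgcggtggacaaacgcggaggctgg
Mcm6: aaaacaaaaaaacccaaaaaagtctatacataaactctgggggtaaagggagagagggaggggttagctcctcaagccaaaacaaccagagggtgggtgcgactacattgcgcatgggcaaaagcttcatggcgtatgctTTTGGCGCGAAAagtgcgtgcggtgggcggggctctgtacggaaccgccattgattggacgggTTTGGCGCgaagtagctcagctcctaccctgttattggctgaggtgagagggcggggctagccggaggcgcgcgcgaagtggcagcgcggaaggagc
Cdc6: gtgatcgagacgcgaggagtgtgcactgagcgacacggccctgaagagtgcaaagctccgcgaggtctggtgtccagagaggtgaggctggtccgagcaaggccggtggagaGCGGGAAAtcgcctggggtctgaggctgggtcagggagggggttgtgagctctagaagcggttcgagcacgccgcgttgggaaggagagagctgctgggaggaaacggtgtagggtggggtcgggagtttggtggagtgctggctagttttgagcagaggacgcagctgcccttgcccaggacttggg
Rrm1: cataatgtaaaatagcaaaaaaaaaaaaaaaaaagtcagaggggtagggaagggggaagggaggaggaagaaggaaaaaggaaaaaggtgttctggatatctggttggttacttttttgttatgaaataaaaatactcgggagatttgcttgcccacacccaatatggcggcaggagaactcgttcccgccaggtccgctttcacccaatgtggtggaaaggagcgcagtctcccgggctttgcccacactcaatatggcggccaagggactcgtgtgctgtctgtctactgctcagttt
Rrm2: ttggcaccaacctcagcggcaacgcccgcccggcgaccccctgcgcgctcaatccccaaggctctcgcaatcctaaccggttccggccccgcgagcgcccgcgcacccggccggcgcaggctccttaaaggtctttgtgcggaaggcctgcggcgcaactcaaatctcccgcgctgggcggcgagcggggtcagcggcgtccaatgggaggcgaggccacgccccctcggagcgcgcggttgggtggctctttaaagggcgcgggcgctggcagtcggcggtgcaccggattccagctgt
A match describes the letters only, and E2F binding was not measured.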

How the data were processed

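RNA was poly(A)-selected and sequenced from 3 PID+ and 3 PID- lines. The authors trimmed adapters, used TopHat for alignment to GRCm38.p3, merged the 3 sets of reads of a condition and deposited CuffDiff's FPKM values with the bounds of their confidence intervals, which cover CuffDiff's own error model. By the labels each set is a different mouse, whereas the methods speak of repeated runs. Of 21966 genes, 7 without a usable value were left out. The planned design allowed for counts per sample; with pooled FPKM, 1 was added to each FPKM and the log2 ratio of PID+ over PID- taken, without a test, and a gene is counted past a fold on that scale.

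The members and lists were chosen with earlier results of these data known. Values with intervals are given for members at least 1.5-fold apart, the 3 nearest that fold on either side and the 5 most abundant by mean. From each comparison list, genes at least 2-fold apart whose higher FPKM reached 1 are named, at most 6. Positions and overlaps came from Gencode M21 (GRCm38). Low FPKM of genes with 1 transcript fell on steps of whole reads: 89.5% of 831 values in PID+ and 91.2% of 771 in PID- cells were within 0.1 of a whole number. Values without steps would give 20% for a step size fixed beforehand. Here the step size was searched to bring this share near its highest, so the 20% is too low a comparison. From these steps and each gene's shortest coding transcript, the 48 genes had at least 94 reads in PID- and 124 in PID+ cells, so their counting error was at most 10.3%; the spread between lines is not measured. Alternatives were a pseudocount of 0.1, other scalings, subtraction of chromosome medians, a minimum mean FPKM of 5, folds of 2 and 3, and interval rules. Python 3.11.15 with pandas 2.3.3 was used, and the calculations were tested on simulated data.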

Additional observations from a re-analysis of the deposited data

How the results depend on the processing

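The median log2 change of the 48 genes lay between 0.56 and 0.70 and the count at least 1.5-fold higher between 23 and 30 with a pseudocount of 0.1 and under the scalings other than equal Gapdh. The median was 0.56 with equal total FPKM. With equal Gapdh it was 0.074, with 10 of the 48 genes higher and 2 lower, and 600 of all genes higher and 5813 lower; this follows from dividing each ratio by 1.54. A pseudocount of 0.1 gave 2983 genes higher and 2952 lower, since it shrinks the ratios of low values less. Subtracting chromosome medians left 0 of the 48 lower. Among genes averaging 5 FPKM or more, 1249 were lower, since fewer were counted. A fold of 2 gave 12 of the 48 higher and 0 lower, with 726 and 828 of all genes, and a fold of 3 gave 1 and 0, with 229 and 377. Intervals apart gave 0 and 0, with 41 and 119. The next rules were chosen after seeing the data. Requiring each FPKM to lie outside the other interval gave 5 and 0, with 155 and 255, and setting the median of 15 housekeeping genes to 0 gave a median of 0.70 with 30 and 1. Leaving out the 13 genes with overlaps, also chosen afterwards, gave 0.72. Among the 48 genes, the log2 change of 8 moved by more than a spread derived from the intervals but narrower than them, all with equal Gapdh. None of the 48 that was past 1.5-fold changed sign under a scaling.

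No paired analysis was possible because the table holds 1 pooled value per condition, and for the same reason leaving out samples was not run. The lines behind each value cannot be compared, so it is unknown whether a difference is shared by the 3 lines of a genotype. Reads of overlapping genes and pseudogenes could not be separated.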
